A study of Mus musculus with 7 samples.

Results

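The Hox genes of the mouse lie in 4 clusters, and 38 of them were taken here by name from the gene annotation: 10 of Hoxa on chromosome 6, 10 of Hoxb on chromosome 11, 9 of Hoxc on chromosome 15 and 9 of Hoxd on chromosome 2. They were 38 of 21853 protein-coding genes examined. Each cluster was read from 10 kb before its first to 10 kb after its last gene of this set, and 500 kb on each side served as its flanks. The libraries were 7 ATAC-seq libraries of retinal endothelial cells from FUCCI reporter mice at postnatal day 6. ATAC-seq cuts accessible DNA with a transposase, and FUCCI marks phases of the cell cycle by fluorescent colour. The cells were sorted as CD31-positive, CD45-negative and negative for propidium iodide, and then into early G1 (no reporter colour, 3 libraries) or late G1 (red reporter, 4 libraries). The genotype, age, tissue and sort gate were thus shared, and the labelled difference between the groups was reporter colour. The pooled lists cannot show whether library batches differed as well. The promoter that drives the reporter and the number of mice behind each library are not given in the sources used here.

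Each group was represented by 1 list of broad peaks called on its pooled libraries. A pooled list carries no replicate error, so no difference could be tested, no p-value is given, and early and late values are set side by side as descriptions of 2 lists. The early list held 606661 peaks and the late list 383721, from 137191808 and 124693948 fragments, which gave a mean coverage of 11.0 and 10.3 fragments per base. The pileup of a peak is the authors' mean number of fragments stacked over it. Pileup is not scaled to depth and was compared only within a list, in which 19.0 was the lowest value in both cases. The lists differed across the whole genome, with a median peak length of 1334 bp and a median pileup of 26.7 in early G1, and 681 bp and 49.8 in late G1.

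Hox genes encode homeodomain transcription factors that give cells their position along the body axis. Within a cluster the genes stand in the order in which they are used from head to tail, and genes of the same number in different clusters are paralogs descended from 1 ancestral gene. Where a cluster is silent it is classically held by Polycomb complexes, and where it is active by Trithorax (MLL) complexes. The neural retina arises in the forebrain, outside the region where Hox genes pattern the embryo, whereas endothelial cells of several vascular beds are known to use individual Hox genes. They include Hoxa5 and Hoxd10, associated with quiescent vessels, Hoxd3, associated with sprouting vessels, and Hoxa9 and Hoxb5, associated with endothelial identity.

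In proportion to their coverage, the clusters differed from one another more in the late list than in the early list, and Hoxa stood lowest there. The late list covered 8.51% of the bases of Hoxa, 18.4% of Hoxb, 21.4% of Hoxc and 19.7% of Hoxd, against 13.3% of the sequenced genome. The early list covered 50.3% of Hoxa, 39.3% of Hoxb, 52.2% of Hoxc and 53.1% of Hoxd, against 40.5% of the genome. The cluster with the lowest coverage was therefore Hoxa in the late list and Hoxb in the early list. Taken as one, the clusters (565 kb) were covered to 47.6% by early and 17.3% by late peaks, and the flanks (4000 kb) to 42.0% and 13.4%. With equal numbers of the highest-scoring peaks, 191860 in each list, the clusters were covered to 15.9% by early and 10.8% by late peaks. Hoxa was then covered to 15.3% and 2.36%, so its early and late shares did not draw closer in proportion. In sorted pools, fewer cells with open DNA and less opening per cell cannot be told apart.

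**Figure D1:**
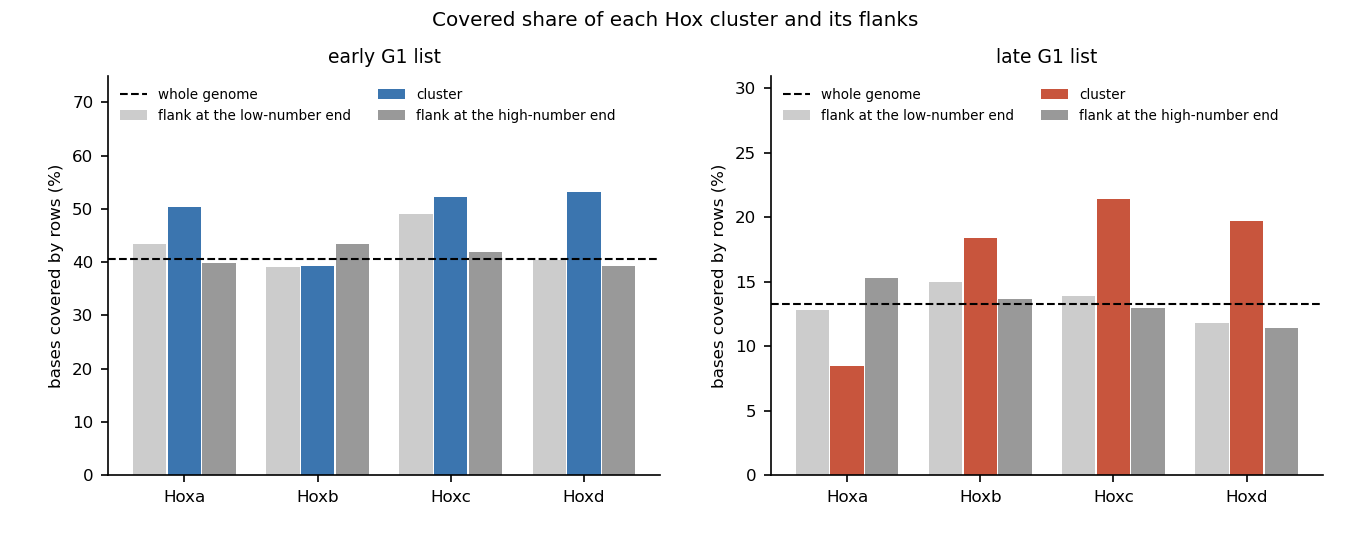
Share of bases covered by peaks (%, bars from 0) in each Hox cluster and in its 500 kb flanks, for the early G1 list (left) and the late G1 list (right), with the whole genome as a dashed line. In the late list Hoxa (8.51%) lies below both of its flanks and the other clusters (18.4% to 21.4%) lie above theirs.

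Against its own flanks, Hoxa was covered 1.21 times as much in the early list and 0.607 times as much in the late list. Its low-number flank, beside Hoxa2, was covered to 12.8% and its high-number flank, beyond Hoxa13, to 15.3% by late peaks, so the cluster lay below both. Hoxc and Hoxd lay above their flanks in both lists, at 1.15 and 1.33 times in the early and 1.59 and 1.70 times in the late list. Hoxb lay above its flanks only in the late list (1.28 times). In the early list the ratio of Hoxb was 0.954, and it became 1.07 when only the higher-scoring peaks were kept. Approximate 95% ranges that count each kb as 1 independent draw held 1 for Hoxa in both lists (0.997 to 1.47 early, 0.330 to 1.12 late), for Hoxb in both (0.789 to 1.15 and 0.920 to 1.79) and for Hoxc in the early list (0.964 to 1.37). They lay above 1 for Hoxd in both lists (1.11 to 1.61 and 1.13 to 2.54) and for Hoxc in the late list (1.11 to 2.28). Neighbouring kb are not independent, since peaks in the clusters had a median length of 1663 bp early and 892 bp late. The ranges are therefore likely too narrow, and they are not a test.

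Windows of the same length across the autosomes set these shares in scale. For Hoxa, 90.2% of 20126 such windows had late coverage at or above that of the cluster, and 16.1% had early coverage at or above it. Coverage was higher in windows of higher GC content in both lists, and the clusters were richer in G and C (48.4% to 49.6%) than their flanks (40.9% to 46.6%) and poorer in repeats (13.3% to 24.5% against 22.2% to 35.6%). Among the 1681 windows within 2 percentage points of the GC content of Hoxa, the median late coverage was 18.4% (quartiles 15.9% and 20.9%; 13.6% over all windows), and 99.9% of them were at or above Hoxa. For Hoxb it was the early list that stood apart, with 99.4% of 1337 windows of like GC content at or above its 39.3%. Late coverage of Hoxb was met or exceeded by 42.2% of those windows. For Hoxc and Hoxd the like shares were 24.9% and 20.4% in the early list and 13.8% and 29.4% in the late list, which places both inside the range of windows of their composition. The windows are a scale and not a test, and those of like GC content were not matched on repeats or genes. Bases between genes made up 68.5% of Hoxb, against 33.7% to 47.7% of the other clusters. Early peaks covered 34.3% of these bases in Hoxb and 58.4% of its introns.

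The low late coverage of Hoxa came with fewer, shorter and lower peaks than in the other clusters. Hoxa held 14 late peaks (11.8 per 100 kb) of median length 526 bp and median pileup 36.4, a pileup that 37.8% of all late peaks do not exceed. Hoxb held 30 late peaks (15.5 per 100 kb) of median length 1046 bp and median pileup 64.2. Hoxc held 25 (18.4 per 100 kb, 896 bp, pileup 54.5) and Hoxd 21 (18.0 per 100 kb, 985 bp, pileup 51.6). Over its own flanks, Hoxa stood at 0.832 for late peaks per 100 kb, 0.777 for median length and 0.937 for median pileup. The median pileup in its high-number flank, 33.8, was below that of the cluster. A pileup above 100, a mark chosen after the values were seen, was reached by 25 of the 90 late peaks in the clusters (27.8%), against 25.0% of late peaks in the flanks and 25.2% in the genome. Of these 25, Hoxa held 1, Hoxb 7, Hoxc 8 and Hoxd 9. By place, 12 of the 25 had their centre between genes, 7 in introns and 5 within 1 kb of a start site, and 19 touched an early peak. Of all 90 late peaks, 34 lay between genes, 28 in introns and 20 near a start site. An early peak was touched by 68.9% of the 90 and by 66.4% of late peaks in the genome. Between genes means outside the Hox genes, so peaks inside noncoding genes such as Hotair count there.

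The pileup of early peaks varied less from cluster to cluster. Their number was 33 in Hoxa, 42 in Hoxb, 35 in Hoxc and 28 in Hoxd, and their median pileups were 27.1, 26.1, 27.5 and 29.9. Median lengths were 1121, 1684, 1715 and 2144 bp. No early peak in the clusters or in the flanks exceeded a pileup of 100, and in the whole early list only 0.0791% did.

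**Figure D2:**
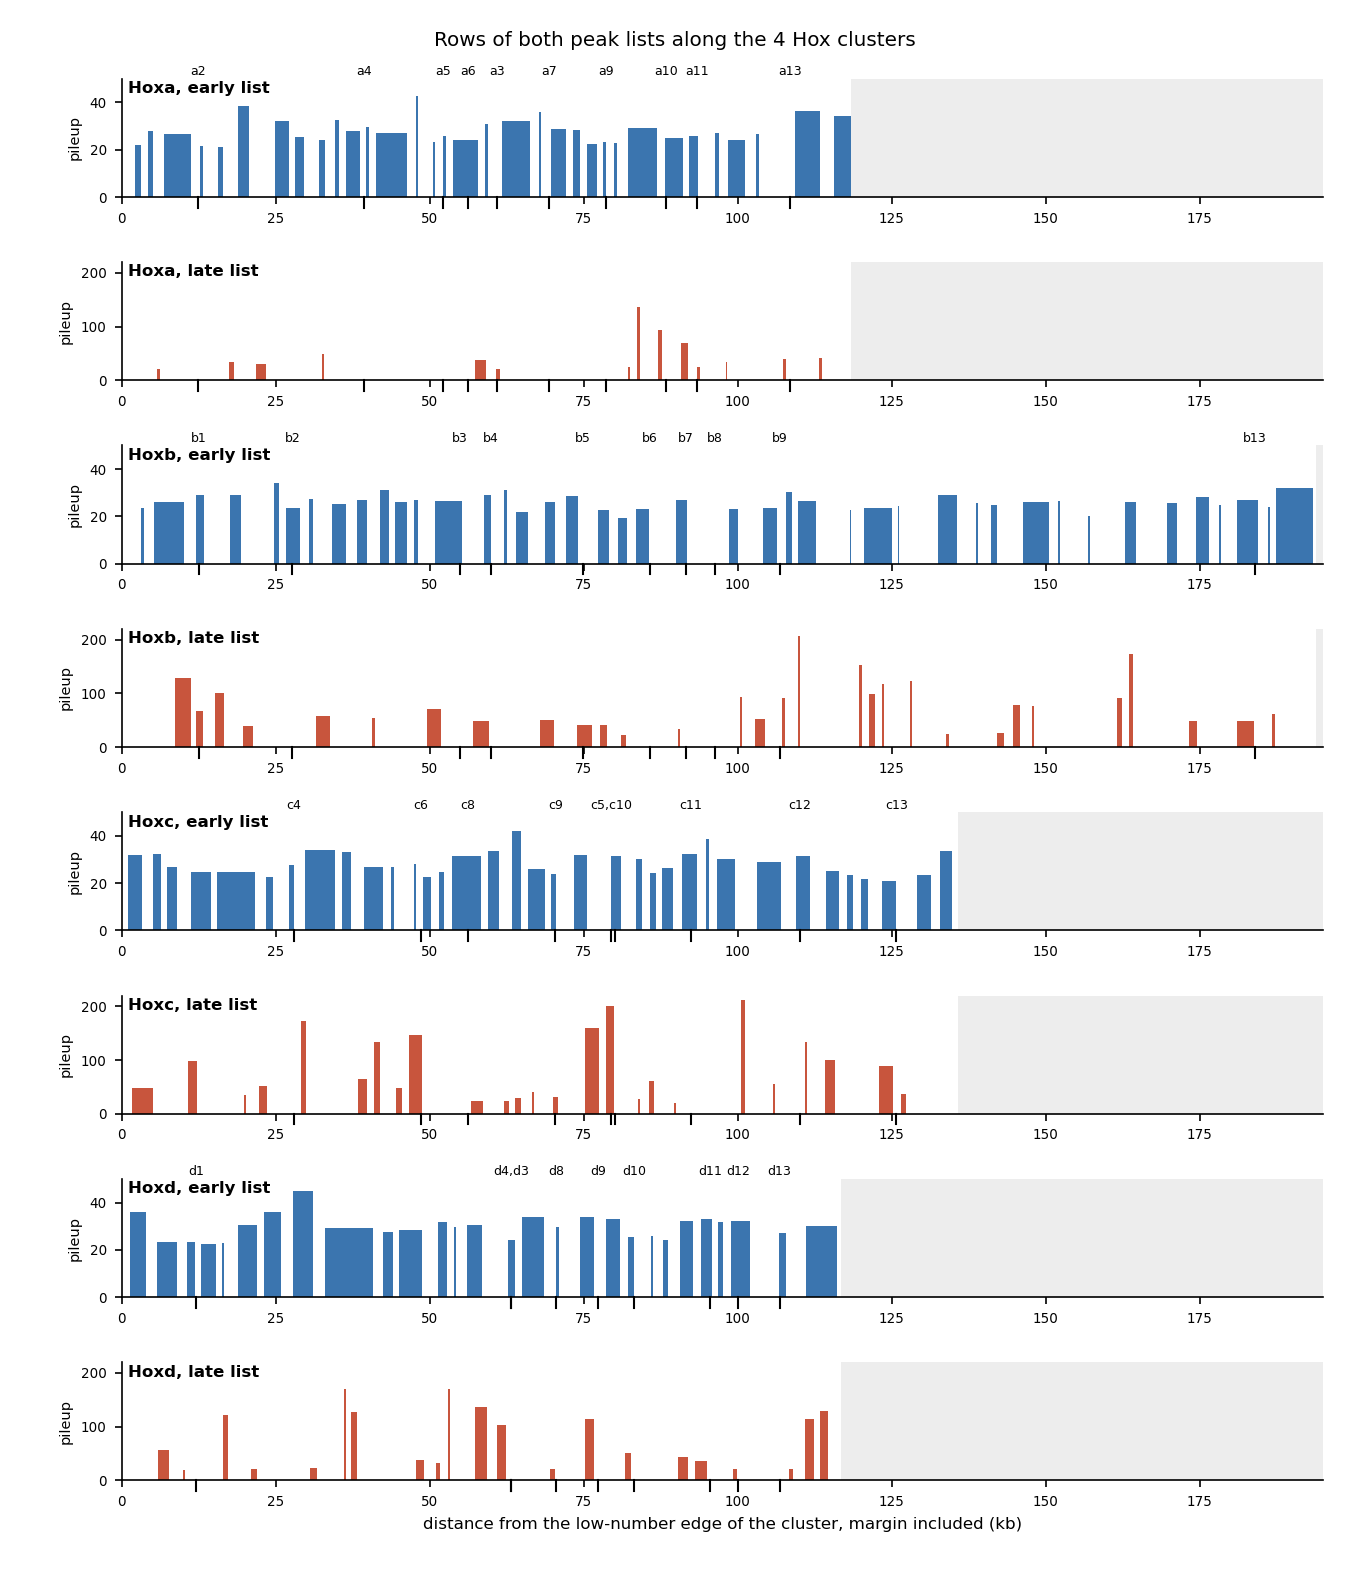
Peaks of both lists along the 4 Hox clusters, with distance from the low-number edge of the cluster in kb on the x axis and the authors' pileup on the y axis; each block is 1 peak drawn to its true width (or the thinnest visible line), black ticks mark the 5' ends of the genes, named by cluster letter and number, and grey marks positions past the cluster. The late panel of Hoxa shows 14 peaks, of which 1 exceeds a pileup of 100, and an empty stretch of 24493 bp; pileup axes differ between the lists.

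The middle of Hoxa, where its paralog groups 4 to 9 lie, was nearly free of late peaks. The longest stretch with no late peak, chr6:52185263-52209755 (mm10), ran for 24493 bp and held the start sites of Hoxa4, Hoxa5 and Hoxa6. The next, chr6:52213857-52234622, ran for 20766 bp and held those of Hoxa7 and Hoxa9. Early peaks covered 55.2% and 54.5% of these stretches. Empty stretches of this size were not rare around the clusters, since the longest one in each of the 8 flanks measured 17454 to 34217 bp. In the other clusters the longest stretch without a late peak was shorter: 13398 bp in Hoxb, between Hoxb13 and Hoxb9, where 51.5% of the bases were repeats, 10567 bp in Hoxc, over the start of Hoxc11, and 9540 bp in Hoxd, over internal start sites of Hoxd3. In the early list the longest stretches without a peak were 5807 bp in Hoxa (over Hoxa13), 6805 bp in Hoxb (over the whole of Hoxb8), 3911 bp in Hoxc (inside Hoxc10 and the long Hoxc5 transcript) and 4746 bp in Hoxd (over most of Hoxd13 and past its end).

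The late peak of highest pileup in Hoxa was 509 bp long and lay in an intron of Hoxa10, at chr6:52236014-52236522 (pileup 137, 8.51-fold over local background by the authors' value), fully inside an early peak. In Hoxb it was a 239-bp peak between genes, 3146 bp from a start of Hoxb9, at chr11:96268192-96268430 (pileup 207, 14.0-fold). In Hoxc it was a 557-bp peak at chr15:102945697-102946253 (pileup 212, 18.8-fold), inside the noncoding gene Hotair. It lay 8452 bp from the start of Hoxc11 and outside every early peak. In Hoxd it was a 369-bp peak at chr2:74721767-74722135 (pileup 171, 7.81-fold), centred 27 bp from a start of Hoxd4, also outside every early peak. Within the late list these pileups stood at percentile 85.9, 95.7, 96.0 and 92.1. In the early list the highest pileups were 42.8 in a 230-bp peak in an intron of Hoxa3, 34.2 over the coding sequence of Hoxb2, 42.0 in an intron of Hoxc9 and 44.8 at an internal start of Hoxd3. The annotated body of Hoxa3 spans Hoxa4, Hoxa5 and Hoxa6, and the start nearest to the 230-bp peak was that of Hoxa5.

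The longest late peaks measured 1739 bp in an intron of Hoxa3, 2739 bp over Hoxb13, 3427 bp beyond Hoxc4 and 2016 bp in an intron shared by Hoxd3 and Hoxd4. The longest early peaks measured 5120 bp in an intron of Hoxa3, 5975 bp beyond Hoxb13, 6231 bp in an intron of Hoxc4 and 7820 bp in Hoxd3. The late peaks at the ends of Hoxb and Hoxc thus exceeded the longest of Hoxa, and all of these early peaks exceeded all of these late ones, as the median lengths of the whole lists do. Because the annotated body of Hoxa3 spans other Hoxa genes, its peaks cannot be assigned to 1 gene. The nearest start was that of Hoxa6 for the longest late peak of Hoxa and of Hoxa4 for the longest early one.

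A gene was said to have a promoter peak where at least 1 bp of a peak lay within 1 kb of a start site of one of its protein-coding transcripts; the windows of different Hox genes did not overlap. In the early list 37 of 38 Hox genes had a promoter peak (97.4%, exact Clopper-Pearson 95% interval 86.2% to 99.9%), beside 92.6% of all protein-coding genes. In the late list 25 had one (65.8%, 48.6% to 80.4%), beside 67.3% of all. These intervals cover counting error only and take genes as independent, which neighbours in a cluster are not. Both counts were near the background and say nothing particular about Hox genes. In both lists there were 25 genes, beside a background of 64.3%. A promoter peak in the early list alone was found for 12 of 38 genes, beside 28.4% of all genes, in the late list alone for 0 (3.07% of all genes), and in neither for 1 gene (4.30% of all). The counts rest on the size of the lists and of the window: with the 191860 highest-scoring peaks of each list, 14 of 38 Hox genes had an early promoter peak (47.1% of all genes), 12 a late one (31.8% of all) and 6 a late one alone (15.0% of all). With a window of 250 bp in place of 1 kb, 13 of 38 had a late promoter peak, beside 51.3% of all genes.

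The 12 genes with an early promoter peak alone were spread unevenly. Hoxa gave 6 of them: Hoxa2, Hoxa4, Hoxa5, Hoxa6, Hoxa7 and Hoxa9. Hoxc gave Hoxc5, Hoxc6 and Hoxc11, Hoxd gave Hoxd1 and Hoxd13, and Hoxb gave Hoxb2. Thus 4 of 10 Hoxa genes had a late promoter peak, against 8 of 10 in Hoxb, 6 of 9 in Hoxc and 7 of 9 in Hoxd. The exact 95% interval for Hoxa was 12.2% to 73.8%. Such intervals take genes as independent, which neighbours in a cluster are not. The starts of Hoxa4, Hoxa5 and Hoxa6 lay in a single stretch without a late peak, and those of Hoxa7 and Hoxa9 in another. A difference between clusters in this count was therefore not tested. By position in the clusters, a late promoter peak was found for 7 of 11 genes of paralog groups 1 to 4 (anterior), 5 of 11 of groups 5 to 8 (middle) and 13 of 16 of groups 9 to 13 (posterior). The intervals were 30.8% to 89.1%, 16.7% to 76.6% and 54.4% to 96.0%, with the same limit, and a difference by position was not tested.

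**Figure D3:**
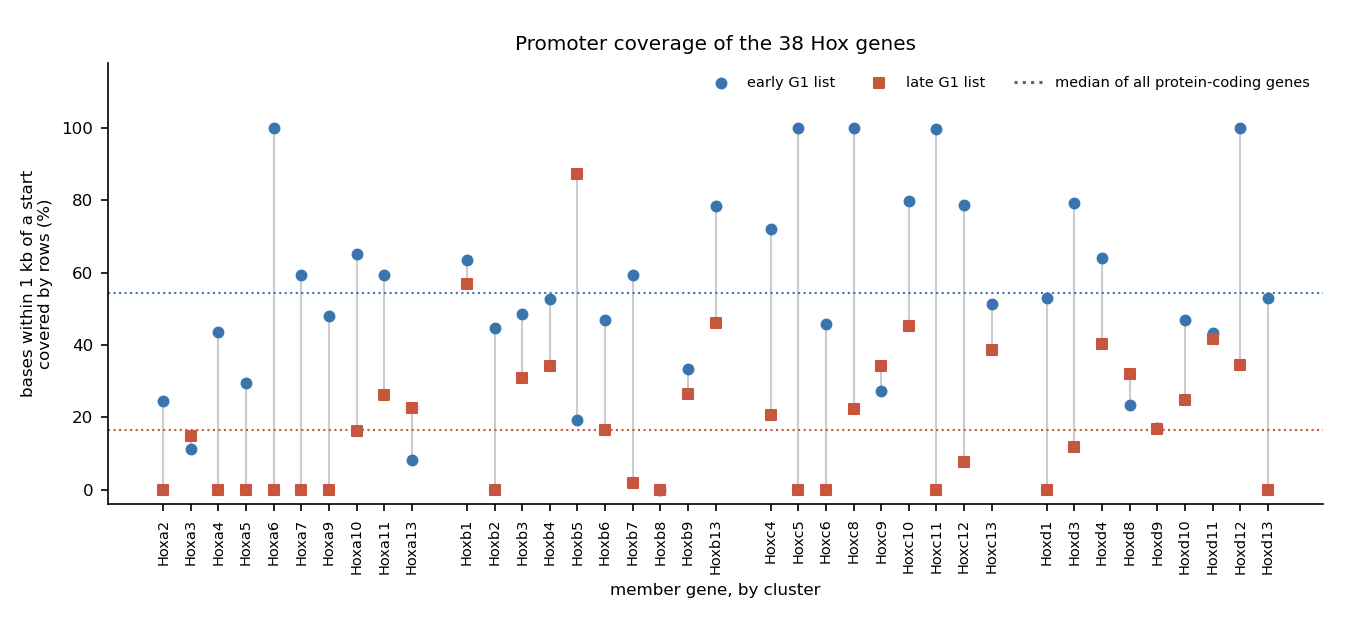
Share of the bases within 1 kb of a start that peaks cover (%, y axis) for each of the 38 Hox genes (x axis), early G1 list as circles and late G1 list as squares, with the medians of all protein-coding genes (54.3% early, 16.4% late) as dotted lines. Most squares of Hoxa lie at 0, Hoxb8 is at 0 in both lists, and Hoxb5 has the highest late value, 87.2%.

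The part of the promoter window that peaks covered also lay near the background in the median. It was 52.0% in early G1 (54.3% over all genes) and 16.7% in late G1 (16.4%). Over whole gene bodies the median Hox gene was covered to 54.2% by early and 20.3% by late peaks, beside 45.7% and 13.9% for all genes. In Hoxa the median gene had no late base in its body or its promoter window, while its median early gene coverage was 57.8%.

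In Hoxa, Hoxa11 and Hoxa13, which pattern the distal limb and the urogenital tract, had the highest late promoter coverage, at 26.1% and 22.5%. Their early values were far apart, at 59.3% and 8.27%. Hoxa11 was the only Hoxa gene whose start site lay inside a late peak, a 523-bp peak of pileup 25.6. Hoxa10, used in the uterus and in blood progenitors, had late peaks at 16.1% of its promoter window with a top pileup of 94.0, and an early share of 65.1%. Hoxa3, which is needed for the thymus and parathyroid, had 14.7% late and 11.2% early. Hoxa6 showed the widest contrast of the cluster: early peaks covered 100% of its window and 100% of its gene body, by a single peak of 3967 bp and pileup 23.9, and late peaks covered neither. That contrast rests on the window edge, since the nearest late peak lay 1034 bp from the start of Hoxa6. The same late peak (1739 bp, pileup 38.6) overlapped 12.4% of the early peak. Hoxa7 was covered to 59.3% early, Hoxa9 to 47.9%, Hoxa4 to 43.7%, Hoxa5 to 29.5% and Hoxa2, a selector gene of the branchial arches, to 24.4%, all with 0 late. Of these, Hoxa9 lay farthest from a late peak, at 7253 bp, followed by Hoxa4 at 6491 bp.

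In Hoxb, Hoxb5 had 87.2% late promoter coverage, the highest of the 38 Hox genes, from a 2382-bp peak of pileup 40.8 over its start site. Its early promoter coverage was 19.1%, and no early peak held its start. Hoxb1, which specifies a hindbrain segment, followed with 56.8% late (1136-bp peak, pileup 67.1) and 63.4% early. At the other end, Hoxb2, another hindbrain gene, had 44.6% early and 0 late coverage and lay 5021 bp from the nearest late peak. Hoxb8, known from blood progenitors and a lineage of microglia, was the only Hox gene with no peak in either list, neither within 1 kb of its 3 start sites nor in its body. Its nearest early peak was 2276 bp and its nearest late peak 4036 bp from a start. Hoxb7 had a late peak that reached only 1.90% of its window.

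In Hoxc, Hoxc10 had the highest late promoter coverage, 45.2%, from a 1324-bp peak of pileup 200, which began 97 bp past the start site; its early coverage was 79.9%. Hoxc13, a regulator of hair and nail, followed with 38.7% late and 51.4% early. Hoxc9, which acts in spinal motor neurons, was the only Hoxc gene with a start inside a late peak (pileup 30.8). The late coverage of Hoxc5, Hoxc6 and Hoxc11 was 0, while their early coverage was 100%, 45.7% and 99.8%. Hoxc5 and Hoxc6 nonetheless held late peaks in their long annotated bodies, 12 with a top pileup of 200 and 4 with a top pileup of 147. The annotated body of Hoxc5 overlaps those of Hoxc6, Hoxc8, Hoxc9 and Hoxc10, so its peaks cannot be assigned to 1 gene.

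In Hoxd, Hoxd11, a limb gene, had 41.6% late and 43.4% early promoter coverage. Hoxd4, which acts in the hindbrain and neck vertebrae, had 40.2% late and 64.0% early, with both of its start sites inside late peaks (top pileup 171). Hoxd8 had late peaks at 32.0% of its window, which held 2 of its 3 starts at a pileup of 22.3, and early peaks at 23.5%. Hoxd1 and Hoxd13, the genes at the 2 ends of the cluster, had 0 late and 53.0% early coverage each. Hoxd3 had late promoter coverage of 11.8% at 5 start sites, yet late peaks of pileup up to 171 in its gene body, and its early promoter coverage was 79.3%. Hoxd10 had 24.7% late and 47.0% early.

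The upstream sequences of the genes at the extremes show how unlike these promoters are. They are the 250 bases before the RefSeq start (GRCm38.p6, the same build as mm10), 5' to 3' on the strand of the gene. Hoxa11, Hoxb3, Hoxc9 and Hoxd4 have a start in the late peak of highest pileup among starts of their cluster, and Hoxa9, Hoxb2, Hoxc5 and Hoxd1 lie farthest from a late peak. Sequences for Hoxb3, Hoxb2, Hoxc9 and Hoxc5 were not used here. Hoxb1 and Hoxb8 were added after their values were seen, Hoxb1 because both lists cover its upstream bases in full and Hoxb8 because neither covers any. Capitals mark matches, on either strand, to GGGCGG (the box bound by SP and KLF factors), AGGTCA (the core bound by nuclear receptors such as the retinoic acid receptors) and CACGTG (an E-box).
Hoxa11, chr6:52245811-52246060, minus strand: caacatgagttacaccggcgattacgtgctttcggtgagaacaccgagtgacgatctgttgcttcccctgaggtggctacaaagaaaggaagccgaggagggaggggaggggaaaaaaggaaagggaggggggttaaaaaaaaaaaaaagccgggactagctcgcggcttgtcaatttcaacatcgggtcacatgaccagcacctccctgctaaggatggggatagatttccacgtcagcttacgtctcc
Hoxa9, chr6:52227371-52227620, minus strand: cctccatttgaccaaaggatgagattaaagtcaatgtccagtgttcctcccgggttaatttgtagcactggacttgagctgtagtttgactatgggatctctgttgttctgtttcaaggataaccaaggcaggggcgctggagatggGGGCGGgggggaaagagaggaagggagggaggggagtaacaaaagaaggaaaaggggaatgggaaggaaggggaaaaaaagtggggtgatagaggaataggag
Hoxb1, chr11:96365508-96365757, plus strand: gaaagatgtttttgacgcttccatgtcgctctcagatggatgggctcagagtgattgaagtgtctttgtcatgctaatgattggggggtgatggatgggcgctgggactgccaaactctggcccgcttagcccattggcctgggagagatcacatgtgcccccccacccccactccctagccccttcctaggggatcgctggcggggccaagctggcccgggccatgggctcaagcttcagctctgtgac
Hoxb8, chr11:96281655-96281904, plus strand: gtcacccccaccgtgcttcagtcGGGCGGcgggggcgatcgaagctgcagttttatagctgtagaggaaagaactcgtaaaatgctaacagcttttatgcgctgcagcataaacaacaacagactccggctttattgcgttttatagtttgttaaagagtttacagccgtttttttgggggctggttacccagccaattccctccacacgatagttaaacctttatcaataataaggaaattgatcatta
Hoxd4, chr2:74721728-74721977, plus strand: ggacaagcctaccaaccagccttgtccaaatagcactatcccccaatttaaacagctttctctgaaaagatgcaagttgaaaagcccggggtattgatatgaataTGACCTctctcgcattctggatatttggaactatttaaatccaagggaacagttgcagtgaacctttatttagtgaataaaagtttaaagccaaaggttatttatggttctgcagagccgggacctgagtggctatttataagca
Hoxd1, chr2:74762730-74762979, plus strand: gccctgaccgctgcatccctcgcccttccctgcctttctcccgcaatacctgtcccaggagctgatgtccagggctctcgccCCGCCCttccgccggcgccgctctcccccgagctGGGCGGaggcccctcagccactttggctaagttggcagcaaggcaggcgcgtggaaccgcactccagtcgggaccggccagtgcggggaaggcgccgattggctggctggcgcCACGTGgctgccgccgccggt

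The late peak of Hoxa11 covered 250 of its 250 bases, that of Hoxb1 250 and that of Hoxd4 211, while Hoxa9, Hoxb8 and Hoxd1 had 0. Early peaks covered 185 bases of Hoxa11 and 250 of Hoxb1, and 0 of Hoxa9, Hoxb8, Hoxd1 and Hoxd4. Neither GC content nor CpG number separated the covered from the uncovered sequences. Hoxd1, with no late base, had 71.6% GC and 24 CpG, and Hoxd4, with a late peak of pileup 171, had 40.4% GC and 3 CpG. The values were 52.0% and 13 for Hoxa11, 49.6% and 3 for Hoxa9, 59.2% and 7 for Hoxb1, and 44.4% and 12 for Hoxb8.

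Of 38 Hox genes, 22 had an upstream sequence in the RefSeq table, with 24 sequences in all. GGGCGG was found in 10 of the 24 (41.7%), beside 35.7% of 32851 promoters of the same length. AGGTCA was found in 7 (29.2% beside 16.3%) and CACGTG in 5 (20.8% beside 7.15%). The homeodomain core TAATTA and the PBX-HOX site TGATTNAT were found in 2 each (8.33%, beside 5.29% and 3.22%). CCGGAAG, an ETS site of the kind endothelial factors such as Erg bind, was found in 0 of 24, beside 8.86% of promoters. With 24 sequences these shares are descriptions. Across the whole clusters, 56 of 134 TAATTA matches lay in early peaks (41.8%, beside 47.6% of bases) and 29 in late peaks (21.6%, beside 17.3% of bases). This was not particular to TAATTA. TGATTNAT (45.2% early, 21.4% late), GGGCGG (45.7%, 21.1%) and the AP-1 site TGANTCA (45.0%, 17.4%) lay on the same sides. CCGGAAG lay on the opposite sides (48.8%, 16.3%), AGGTCA above in both lists (52.2%, 18.3%) and CACGTG below in both (43.2%, 12.3%).

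Over the wider promoter window, the ratio of observed to expected CpG had a median of 0.604 in Hox genes and 0.425 in all genes, and 19 of 38 Hox genes reached 0.6. Of the 5522 genes that reached 0.6, 96.5% had an early and 75.2% a late promoter peak, and their median late coverage was 26.6%, against 16.7% for the Hox genes. The windows of Hoxa4 (0.867), Hoxa5 (0.886) and Hoxd13 (0.840) were among the richest in CpG and had no late base, while Hoxd8 (0.894) and Hoxa11 (0.799) had a start inside a late peak.

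The 5' end of the whole gene lay in a late peak for 18.4% of Hox genes, beside 32.4% of all genes. At 0.75 kb downstream it was 42.1% (16 of 38), beside 21.8% of all genes, and at 0.75 kb upstream it was 13.2%, beside 17.8%. The downstream offset was picked as the highest point of the profile, so its value is a description. Of the 16, Hoxd gave 7 of its 9 genes (Hoxd3, Hoxd4, Hoxd8, Hoxd9, Hoxd10, Hoxd11 and Hoxd12), Hoxc 4, Hoxb 3 and Hoxa 2. The annotated ends of Hoxd3 and Hoxd4, and of Hoxc5 and Hoxc10, lie close together and share their peaks. In the early list the 5' end lay in a peak for 63.2% of Hox genes and 62.4% of all genes.

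**Figure D4:**
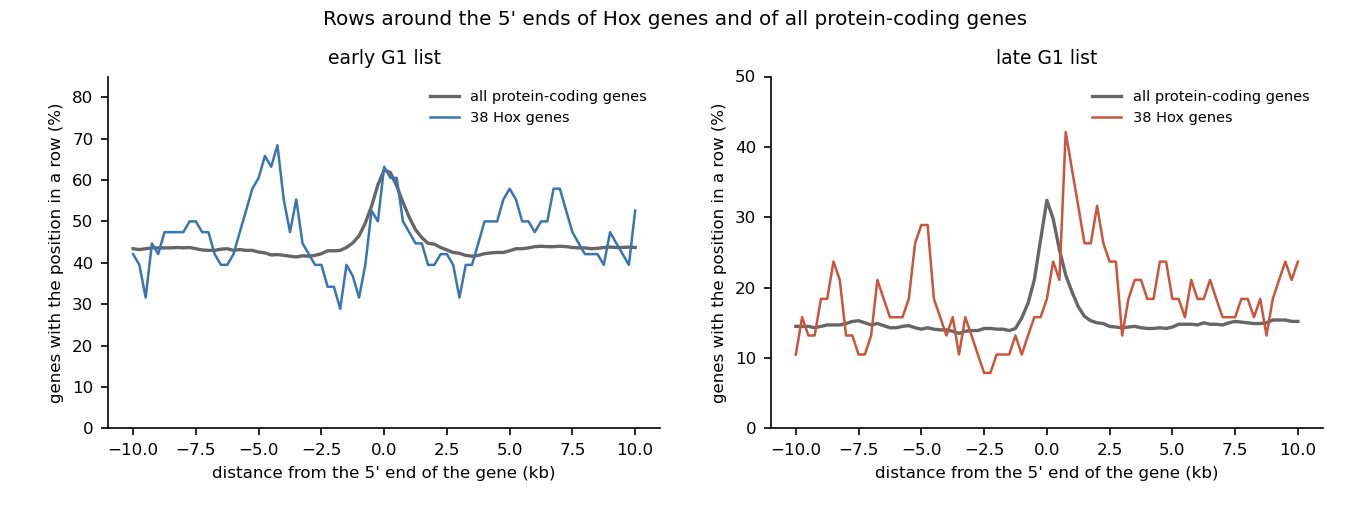
Share of genes (%, y axis) whose position at a given distance from the 5' end (kb, x axis, positive into the gene) lies in a peak, for the 38 Hox genes (coloured) and all protein-coding genes (grey), early G1 list left and late G1 list right. In the late list all genes peak at the 5' end (32.4%), whereas the Hox genes reach 42.1% at 0.75 kb and 18.4% at the 5' end; the Hox line is jagged because it rests on 38 genes.

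With the clusters pooled, coding sequence was the most covered kind of base. Early peaks covered 60.8% of coding exons, 53.0% of introns, 44.1% of untranslated exons and 42.8% of bases between genes. Late peaks covered 30.3%, 20.8%, 18.3% and 13.2%. Single clusters could differ: in Hoxb early peaks covered 58.4% of introns and 44.3% of coding exons, and in Hoxd late peaks covered 28.6% and 26.9%. Coding exons were also the richest in G and C, at 62.0%, beside 47.0% between genes. Within 1 kb of a start, late peaks covered 18.9%, little more than the 17.0% beyond it. Hoxc gave 19.4% near starts and 21.8% beyond, and Hoxb 28.2% and 16.8%.

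The 2 lists overlapped in different measure from cluster to cluster. In Hoxa 2.15% of bases lay in both lists, in Hoxb 7.75%, in Hoxc 10.4% and in Hoxd 12.5%, beside 6.19% of the genome. The genome value counts unsequenced bases, unlike the 40.5% given below, and is therefore somewhat low. Of the late bases, 25.3% lay in early peaks in Hoxa, 42.1% in Hoxb, 48.7% in Hoxc and 63.6% in Hoxd. The same share was 47.9% in the genome and 44.3% to 50.7% in the flanks, so that Hoxa and, by less, Hoxb lay below and Hoxd above. The share depends on how much early peaks cover, and unrelated lists would give a share near the early coverage. Early coverage was 39.3% in Hoxb, 52.2% in Hoxc and 40.5% in the genome. For the 4 clusters as one it was 47.6%, beside a share of 47.4%. Bases in early peaks made up 50.3% of Hoxa and 53.1% of Hoxd, so a like early coverage came with a different share of late bases inside it.

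Each cluster also carries microRNAs and long noncoding RNAs. The Hox microRNAs belong mostly to the miR-10 and miR-196 families, whose members lie in different clusters and target Hox messages among others. Their mature 5p strands are shown with the seed, bases 2 to 8, in capitals, because copies with an identical seed differed in their peaks.
mmu-miR-10a-5p (Hoxb): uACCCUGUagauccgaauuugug
mmu-miR-10b-5p (Hoxd): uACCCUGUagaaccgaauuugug
mmu-miR-196a-5p (Hoxb and Hoxc): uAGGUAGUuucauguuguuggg
mmu-miR-196b-5p (Hoxa): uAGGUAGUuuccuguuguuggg

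The miR-10 pair share the seed ACCCUGU. Mir10b, inside the overlapping Hoxd3 and Hoxd4 genes, lay in a late peak that covered its whole hairpin and 50.1% of the bases within 1 kb of the hairpin's 5' end, and 37.8% of that window was early. Mir10a, beside Hoxb4, had no peak of either list in its window. The miR-196 genes share the seed AGGUAGU and had no late base in their windows, with early coverage of 49.3% for Mir196b, 34.7% for Mir196a-1 and 52.1% for Mir196a-2. The window of Mir615 in Hoxc was covered to 100% by an early peak and had no late base. Hairpin ends are not the start sites of the primary transcripts, which can lie far upstream.

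Among long noncoding RNAs, Hoxaas3, antisense in Hoxa, had 80.0% late (pileup 30.8) and no early coverage within 1 kb of its start, and Hoxd3os1, antisense in Hoxd, had 67.6% late (pileup 137) and 24.5% early. In the same window Hottip, at the Hoxa13 end, had 100% early and no late coverage. Hotair, in Hoxc, had 73.8% early and no late coverage there, and Hotairm1, at the other end of Hoxa, had 42.7% and 0. Late peaks did cover part of their gene bodies: 9.46% of Hottip, 15.2% of Hotair and 9.05% of Hotairm1. The body of Hotair held the late peak of highest pileup in Hoxc. ATAC-seq carries no strand, so peaks at antisense genes cannot be assigned to either strand.

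Promoters of genes that act on or with the clusters were read in the same way. Of all protein-coding genes, 92.6% had an early promoter peak, 67.3% a late one and 64.3% both, and with so few genes per list the counts are descriptions. All 10 genes of Polycomb repressive complex 2 and all 8 Trithorax and MLL genes listed had promoter peaks in both lists. For Polycomb repressive complex 1 all 11 had an early and 8 a late promoter peak, with Ring1 highest (50.3% late coverage) and Cbx2, Cbx7 and Phc3 at 0. Of 9 Hox cofactors, the PBX, MEIS and PKNOX proteins that bind DNA with Hox proteins, 9 had an early and 6 a late promoter peak. Meis3 was covered to 100% and Meis2 to 34.1% by late peaks, and Pbx2 and Pbx4 to 0. Of 11 retinoic acid receptor, Cyp26 and Cdx genes, which relay signals to the clusters, 10 had an early and 7 a late promoter peak, and of 9 insulator and cohesin genes 9 and 5, with Ctcf itself at 30.3% early and 0 late.

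Other homeobox genes gave a point of comparison within the gene family. Of 21 homeobox genes used in the retina, 21 had an early and 16 a late promoter peak, with Vax2 (78.6% late) and Onecut1 (49.2%) highest. Of 26 homeobox genes used elsewhere in the body, 20 had an early and 18 a late promoter peak. The shares over all genes were 92.6% early and 67.3% late. A late promoter peak without an early one was found for 5 of these 26 (Bsx, En2, Gsx2, Pdx1 and Tlx3), beside 3.07% of all genes. The 0 of 38 Hox genes lay near that background.

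The labelled cell type was checked on markers, beside 92.6% of all genes with an early and 67.3% with a late promoter peak. Of 12 endothelial genes, 10 had an early and 7 a late promoter peak, with Robo4 at 98.9% late coverage and Pecam1, Kdr, Flt1, Emcn and Tek at 0. Tek, the angiopoietin receptor, had none in either list. Of 10 photoreceptor genes 10 and 7 had one (Sag 72.1% late), of 10 progenitor and glial genes 9 and 7, of 8 pericyte genes 8 and 4, of 8 blood and microglia genes 8 and 2, and of 12 housekeeping genes 11 and 9. Promoter peaks therefore did not set endothelial genes apart from those of other retinal cells, and the part of other cells in the Hox values was not tested.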

How the data were processed

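The 7 libraries were grouped by their sample titles into early G1 (3) and late G1 (4). The submitters' processing notes name Trimmomatic, STAR, bedtools and MACS2, and mm10 as the genome. The authors' peaks are broad calls of MACS2 2.2.7.1 on the merged fragments of a group, per the file headers. No control was given, duplicates were kept, and the q-value cutoffs were 0.05 and 0.1. The deposited signal is the pileup of a peak, the deposited fold is its ratio to local background, and the deposited −log10 q-value ranked peaks under stricter settings. A broad call joins neighbouring regions, and retained duplicates can add to a pileup. The headings of some score columns were damaged and these columns were identified by their order.

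Peak positions were intersected with GENCODE M21 on GRCm38.p6 using Python 3.11.15, NumPy 2.4.6 and pandas 2.3.3, with SciPy 1.17.1 for intervals. The 21853 protein-coding genes had 54361 start sites, and an overlap meant at least 1 bp. The interval and motif searches were tested on simulated data. Cluster bounds were set by the 38 genes alone, so a cluster may reach further than given. No test was run, because each group is 1 pooled list. The genes, 14 gene lists, 8 motifs and rules were chosen with earlier results of these data known. Genes named singly were those with a promoter peak in 1 list or neither, the 2 highest and 2 lowest by late promoter coverage in each cluster, the carriers of the highest or longest peaks and longest empty stretches, and up to 2 extremes per other list; further genes were named after their values were seen. Alternatives covered the peak score, margins, flanks, repeats, peak merging and the promoter window.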

Additional observations from a re-analysis of the deposited data

How the results depend on the processing

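No paired analysis was possible because the libraries of a group were merged before peaks were called, and for the same reason no replicate could be left out. Of 164 shares, ratios and medians recomputed under the alternative settings, 134 stayed within their approximate 95% range, 28 left it and 2 crossed a ratio of 1. Merging and assignment by peak centre left every value as it was, so the 134 include values that could not leave their range. In the late list the 2 score settings keep the same peaks, so their late values are counted 2 times. Of 36 counts of Hox genes, 14 stayed within 1.5 times the reported count. The 2 that crossed were Hoxb in the early list over its flanks, 1.07 with the higher-scoring 50% of peaks and 1.07 with equal numbers of top peaks; the cause was not tested. Margins of 0 or 25 kb, flanks of 250 or 1000 kb, repeat-free bases and merging kept every covered ratio on its side of 1, including 0.554 to 0.826 for Hoxa in the late list.

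With the higher-scoring 50% of peaks, which are fewer by construction, coverage of the clusters was 27.0% early and 10.8% late, the late ratio to the flanks 1.65, and the median pileups 30.1 and 99.2. Promoter peaks were then found for 24 Hox genes early, 12 late, 8 in both, 4 late alone and 10 in neither. With equal numbers of top peaks, coverage was 15.9% and 10.8%, the late ratio 1.65, the median early length 1950 bp and the median pileups 31.8 and 99.2. The late values repeat those above because the late peaks are the same. Promoter peaks were found for 14 Hox genes early, 12 late, 6 in both, 6 late alone and 18 in neither. Within 250 bp of a start, 13 Hox genes had a late promoter peak, 11 both, 19 an early one alone, 2 a late one alone and 6 neither. Within 3 kb, 0 had neither. With 50% of the window covered, the counts were 20 early, 2 late, 1 both, 19 early alone, 1 late alone and 17 neither. A flank setting bears on ratios alone and assignment by peak centre on peak length and pileup alone. Pileups are pooled, so depth per library is unknown.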
